A study of Mus musculus with 12 samples.

Results

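The carbohydrate sulfotransferase transcripts examined here are those of 9 mouse genes, Chst1, Chst2, Chst3, Chst7, Chst10, Chst11, Chst12, Chst14 and Chst15, taken by symbol from the 55335 genes of each table. The family was picked for its member Chst3, chosen on its high level in CTCF-deficient cells and its lower level after LPS in these same libraries, so Chst3 is described below without a test. RNA sequencing was done on bone marrow-derived dendritic cells (BMDCs), which are C57BL/6 bone marrow cells grown with the cytokine GM-CSF for 6 days and then selected on beads for the surface protein CD11c. WT cells carried the CreER transgene (genotype CreER) and KO cells carried it with loxP-flanked alleles of Ctcf (genotype CreER;CTCF fl/fl). CTCF is a DNA-binding protein that shapes chromatin loops together with cohesin. The CreER recombinase was expressed from the Rosa26 locus, so that deletion was not limited to dendritic cells, and 4-OH tamoxifen was given on the first day of culture. The sources used here can be read either way as to whether WT cultures also received it. WTL and KOL denote WT and KO cells stimulated with LPS, a bacterial cell wall component, at 100 ng/ml for 3 h, and each of the 4 groups held 3 libraries.

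Carbohydrate sulfotransferases are Golgi enzymes that move a sulfate group from the donor PAPS onto sugars of growing chains. Those that act on chondroitin and dermatan sulfate place the sulfate on carbon 6 or carbon 4 of N-acetylgalactosamine, and the ratio of the 2 positions is a basic property of the chain. Other members act on keratan sulfate, on the selectin ligands of leukocytes or on the HNK-1 epitope of neural glycoproteins. Sulfated chains at the surface of myeloid cells bind chemokines, growth factors and matrix proteins.

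The members fall into a few enzyme classes that the results below follow. Chst3 (mm10 chr10:60181532-60219260, minus strand) and Chst7 (chrX:20059560-20097521, plus strand) encode chondroitin 6-O-sulfotransferases. Chst11 (chr10:82985498-83195900, plus strand) and Chst12 (chr5:140505550-140525724, plus strand) encode chondroitin 4-O-sulfotransferases, and Chst14 (chr2:118926496-118928585, plus strand) encodes the dermatan 4-O-sulfotransferase. Chst15 (chr7:132235780-132317228, minus strand) encodes the enzyme that adds a 6-O-sulfate to a residue already sulfated at carbon 4. Chst1 (chr2:92599707-92615250, plus strand) encodes the keratan sulfate galactose 6-O-sulfotransferase. Chst2 (chr9:95399292-95406722, minus strand) encodes an N-acetylglucosamine 6-O-sulfotransferase of selectin ligands. Chst10 (chr1:38863867-38898161, minus strand) encodes the HNK-1 sulfotransferase. Enzyme class and protein sequence did not always go together. Translated from the annotated coding sequences, Chst3 (478 residues) shared 44.4% of 399 aligned residues with Chst1 (411 residues), and 30.2% of 430 with Chst7 (484 residues), whose closest relative was Chst2 at 46.7%. Chst11 and Chst12 shared 41.3%, and they were 38.5% and 38.1% identical to Chst14, respectively. The longest run of identical bases between any of these transcripts was 35 bases, between Chst3 and Chst15.

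The promoter windows of the 3 members whose transcripts differed most between KO and WT are shown because CTCF binds DNA and its recognition motif contains a CCCTC core. Each window, taken from RefSeq on GRCm38.p6 (the mm10 assembly), runs from 250 bases before to 50 bases after the annotated start, and all 9 members had at least one. Capitals mark CCCTC, or GAGGG where the core lies on the other strand. The windows are chr10:60219211-60219510 on the minus strand for Chst3, chr2:92600867-92601166 on the plus strand for Chst1 and chrX:20059320-20059619 on the plus strand for Chst7, each printed 5′ to 3′. The RefSeq start of Chst1 lies inside the GENCODE gene, downstream of its annotated 5′ end.
Chst3: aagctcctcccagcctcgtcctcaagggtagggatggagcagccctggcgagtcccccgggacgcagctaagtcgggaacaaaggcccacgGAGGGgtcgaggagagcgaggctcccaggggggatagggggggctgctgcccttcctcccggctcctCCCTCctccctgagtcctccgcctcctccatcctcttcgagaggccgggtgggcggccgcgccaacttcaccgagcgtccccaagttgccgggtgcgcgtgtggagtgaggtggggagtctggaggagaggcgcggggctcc
Chst1: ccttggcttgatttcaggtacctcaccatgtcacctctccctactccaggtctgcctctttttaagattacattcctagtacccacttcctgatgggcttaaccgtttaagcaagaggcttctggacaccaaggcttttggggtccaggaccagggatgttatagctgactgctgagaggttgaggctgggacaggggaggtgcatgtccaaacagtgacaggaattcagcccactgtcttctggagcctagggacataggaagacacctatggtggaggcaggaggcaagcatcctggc
Chst7: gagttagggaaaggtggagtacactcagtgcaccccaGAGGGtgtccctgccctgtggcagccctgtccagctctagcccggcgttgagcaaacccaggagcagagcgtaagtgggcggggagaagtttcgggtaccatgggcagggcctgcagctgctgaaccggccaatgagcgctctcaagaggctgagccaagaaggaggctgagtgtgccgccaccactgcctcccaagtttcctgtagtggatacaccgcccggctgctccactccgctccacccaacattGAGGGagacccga
The Chst3 window, with a GC content of 70.0%, held 2 copies of the core and the Chst7 window, at 62.3%, also held 2. The Chst1 window had a GC content of 52.7%, equal to the median of all windows, and held no copy. A match to these 5 letters is common, since 66.0% of the 32851 RefSeq promoter windows have one on either strand. No member's window held the STAT motif TTCNNNGAA, which 8.3% of windows have, or the AP-1 motif TGANTCA, which 7.8% have. These letters describe the windows only.

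The libraries held 12769773 to 16586334 expected counts, with a ribosomal RNA share of 5.17% in replicate 2 of WTL and no more than 1.19% elsewhere. Ctcf transcripts, given as normalised read counts (counts brought to a common library size of 14667315), were 974.9 to 1051 in WT and 745.3 to 886.1 in WTL. They were 516 to 569.7 in KO and 526.4 to 563.5 in KOL, below every WT and WTL library, and reads from the part of Ctcf that was not deleted would be counted too. The dendritic cell markers Itgax, H2-Ab1, Cd74 and Zbtb46 were present throughout, with Flt3 low at 0.63 to 4.1 TPM (a transcript level corrected for length and library size). The summed TPM of 10 dendritic cell markers was 10960 to 11510 in WT, 7550 to 7857 in KO, 11030 to 15100 in WTL and 11490 to 16220 in KOL. That of 10 macrophage and monocyte markers was 1049 to 1093 in WT, 1432 to 1479 in KO, 866.2 to 1036 in WTL and 1025 to 1174 in KOL, and that of 10 neutrophil markers was 381.4 to 405.5 in WT, 206.5 to 238.3 in KO, 349.5 to 444.6 in WTL and 292.1 to 337 in KOL. Of the 10 genes of each list, the dendritic cell list had 2 called higher and 4 lower in KO against WT, the macrophage and monocyte list 4 and 4, and the neutrophil list 1 and 5. Of all genes tested, 22.2% were called higher and 22.4% lower in that comparison. These TPM sums are not scaled between libraries. The shifts in markers accompany the differences between groups given below, and their part in them was not tested. The 10 mast cell markers summed to 4.9 to 5.69 TPM in WT, 5.06 to 5.58 in KO and 27.8 to 39.2 in the LPS groups, where Hdc alone gave 22.1 to 35.3, with Tpsb2, Tpsab1 and Cma1 at 0 in every library. Further, 10 fibroblast markers summed to at most 7.28 TPM and 10 lymphoid markers to at most 6.06 TPM, and 10 osteoclast markers summed to 425.2 to 627.7 TPM. In such bulk samples a smaller number of cells of one type and less RNA per cell cannot be told apart. In the third principal component WTL replicate 1 and KOL replicate 2 stood apart from the other libraries of their groups. Leaving out either one, every call of a member given below was kept except that of the Chst12 interaction without WTL replicate 1.

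Of the 9 members, 7 passed the filter on low counts and 2 did not. Chst2 had at most 4 counts and Chst10 at most 7 counts in any library. For Chst10 the expected counts were 7, 7 and 5 in WT, 1, 3 and 5 in WTL, 0, 3 and 2 in KO, and 4, 3 and 3 in KOL, so that nothing can be said of either gene at this depth beyond a low level. Of the other Chst genes of the annotation, Chst4, Chst5 and Chst9 had no count in any library, where 3 counts is the limit that a count of 0 allows, Chst8 had at most 2, and Chst13, a further chondroitin 4-O-sulfotransferase, had 0 to 20. Chst13 passed the filter but is not a member and enters no sum below. Its KO libraries, with 20, 10 and 15 expected counts, carried it past the filter, so its comparisons with KO are descriptions without a test. The log2 fold change was -1.75 ± 0.58 (SE) in KOL against KO and 1.17 ± 0.51 in KO against WT. No comparison of Chst13 without KO was called. The plot of normalised counts by library shows the 7 members that passed, and 6 of these, without Chst3, enter the tests.

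**Figure D1:**
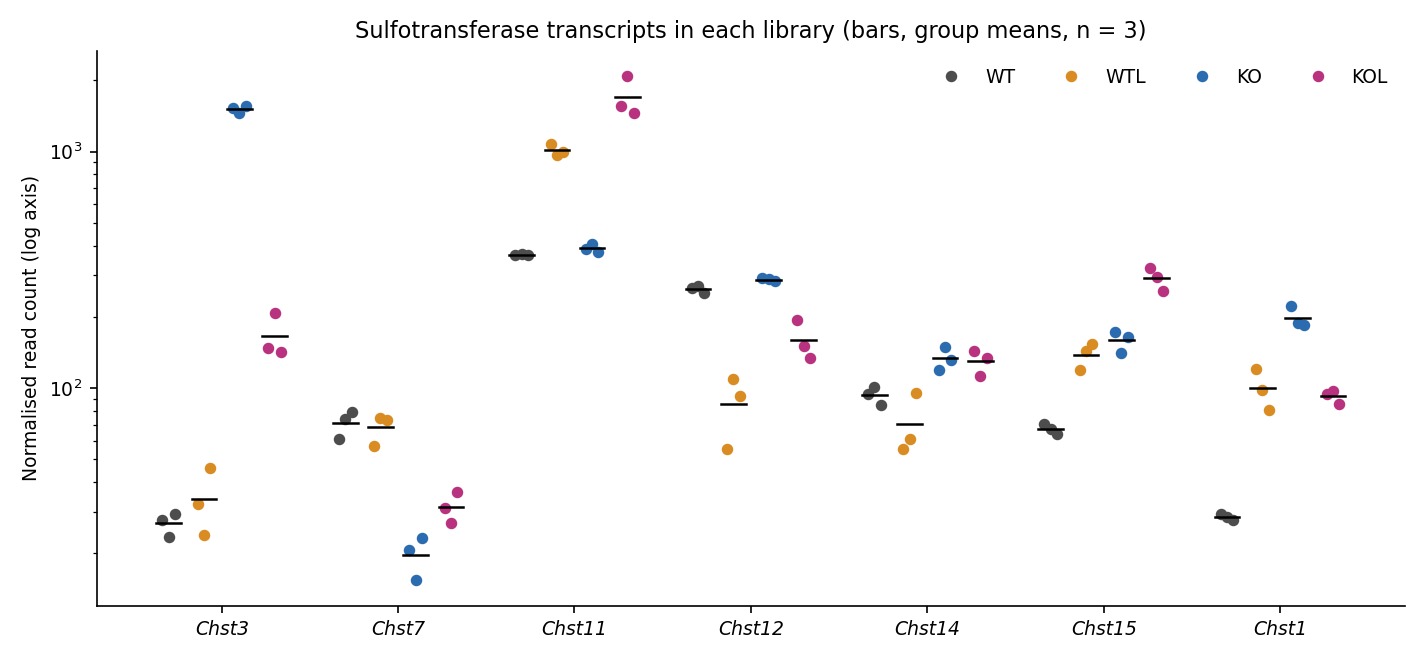
Normalised read counts (log axis) of the 7 members that passed the filter, in each of the 12 libraries, with points for libraries, bars for group means and colours for the 4 groups. Chst3 stands at 1454 to 1555 in KO against 23.5 to 45.7 in the 6 WT and WTL libraries, Chst7 is lower in both KO groups, and Chst11 is higher in both LPS groups.

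Chst3, the 6-O-sulfotransferase that gave rise to the choice of this family, was a low transcript in WT cells and the most abundant member in KO cells. Its normalised counts were 27.6, 23.5 and 29.4 in WT and 1536, 1454 and 1555 in KO, a ratio of means of 56.5. All 3 KO libraries lay above all 3 WT libraries, with a log2 fold change of 5.82 ± 0.17 (SE). After LPS the counts were 147.3, 207.1 and 142 in KOL, 10.9% of the KO mean and lower in every library (log2 fold change -3.20 ± 0.13), yet still above the 32.4, 23.8 and 45.7 of WTL (2.27 ± 0.20). In WT cells the LPS and unstimulated libraries overlapped, with a log2 difference of 0.35 and a 95% interval of -0.20 to 0.90, and on unscaled TPM this difference had the opposite sign. The lower level of Chst3 after LPS was thus seen in KO cells, while in unstimulated WT cells the transcript had only 28 to 34 expected counts per library. These are the values for which Chst3 was selected, and no test is attached to them.

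A second readout that did not enter the choice was the mean transcript length assigned to Chst3, which reflects which annotated transcripts received the reads. It lay between 5985 and 6108 bases in every library, and the 3 annotated protein-coding transcripts have lengths of 5985, 6108 and 1672 bases. The counts were thus assigned almost wholly to the 2 long transcripts in all 4 groups. Within this range it was 5985 to 6037 in WT, 6074 to 6108 in WTL, 6048 to 6061 in KO and 6031 to 6108 in KOL. The WT values rest on 28 to 34 expected counts, and the split between the 2 long transcripts was not tested. An overlapping microRNA gene, Gm22117, had no counts.

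Chst7, which encodes the other chondroitin 6-O-sulfotransferase, moved the opposite way to Chst3. Its normalised counts were 60.6, 73.8 and 79.5 in WT and 20.6, 15.4 and 23.2 in KO. Every KO library lay below every WT library, and the mean was 27.7% of that of WT (log2 fold change -1.85 ± 0.21, edgeR quasi-likelihood test, adjusted p = 5.4e-06). After LPS the counts were 56.6, 74.7 and 73.4 in WTL and 31.2, 26.9 and 36.3 in KOL, and Chst7 was again lower in CTCF-deficient cells (-1.12 ± 0.21, edgeR adjusted p = 0.00049). LPS did not change it detectably in WT cells (-0.06, 95% interval -0.45 to 0.33, edgeR adjusted p = 0.80). In KO cells it rose by 0.67 ± 0.23 on the log2 scale (edgeR adjusted p = 0.0205), a call lost without KO replicate 2 (adjusted p = 0.084) or without KOL replicate 3 (adjusted p = 0.080). The LPS responses of the genotypes did not differ past the threshold (0.73 ± 0.30, edgeR adjusted p = 0.11).

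Compared per transcript length, the 2 chondroitin 6-O-sulfotransferases took opposite orders in WT and KO. Chst7 was 3.44 ± 0.40 TPM in WT (SD, n = 3) against 0.447 ± 0.049 for Chst3, and Chst3 made up 9.90% to 13.5% of their summed TPM. In KO Chst7 was 0.893 ± 0.18 TPM against 23.2 ± 0.64 for Chst3, which made up 95.8% to 97.0%. In KOL the share of Chst3 was 57.0% to 72.2%, between the 2 unstimulated groups. The shares of Chst3 rest on the values it was selected for.

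Among the 4-O-sulfotransferases, Chst11 and Chst12 responded to LPS in opposite directions in both genotypes. Chst11 had normalised counts of 364.7, 369.8 and 366.5 in WT and 1072, 971.7 and 999.5 in WTL, and every LPS library lay above every unstimulated one (log2 fold change 1.47 ± 0.12, edgeR adjusted p = 5.9e-08). In CTCF-deficient cells it went from 385.8, 406.1 and 377 in KO to 1552, 2088 and 1450 in KOL (2.12 ± 0.12, edgeR adjusted p = 8.6e-10). The gain with LPS was larger in CTCF-deficient cells by 0.66 ± 0.16 on the log2 scale (interaction, edgeR adjusted p = 0.012). KOL replicate 2 was the highest of its group, and without it the difference was 0.48 ± 0.10 (edgeR adjusted p = 0.0024). Chst11 was accordingly higher in KOL than in WTL (0.74 ± 0.11, edgeR adjusted p = 7.1e-05), while KO and WT differed by 0.09 with an interval of -0.17 to 0.34.

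Chst12 fell with LPS. The normalised counts were 264.6, 270.9 and 253.2 in WT and 55.3, 109.4 and 92.5 in WTL, a mean of 32.6% of that of WT with no overlap (log2 fold change -1.59 ± 0.17, edgeR adjusted p = 2.0e-06). They were 290.7, 288 and 283.5 in KO and 194.6, 150.9 and 134.5 in KOL (-0.84 ± 0.16, edgeR adjusted p = 0.00031). WTL replicate 1, the library that stood apart, was the lowest of its group. KO and WT differed by 0.13 (interval -0.19 to 0.45), whereas KOL exceeded WTL by 0.88 ± 0.18 (edgeR adjusted p = 0.0014). The smaller fall in CTCF-deficient cells passed the threshold (interaction 0.75 ± 0.24, edgeR adjusted p = 0.043), but the call was lost in 9 of the 12 fits that left out a library, including that without WTL replicate 1 (0.54, adjusted p = 0.058).

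The 2 genes thus exchanged places. Chst12 was 67.0% ± 0.67 of the summed Chst11 and Chst12 TPM in WT (SD, n = 3) and 69.4% ± 0.93 in KO, against 18.9% ± 6.4 in WTL and 20.9% ± 4.0 in KOL. The ranges of both LPS groups, 11.5% to 25.5%, lay wholly below those of the unstimulated groups, 66.3% to 70.5%, and within each treatment the genotypes were close together. With 3 libraries against 3, an exact permutation test of one such share cannot go below p = 0.10, so none is given.

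Chst14, the dermatan 4-O-sulfotransferase, was higher in CTCF-deficient cells with and without LPS. Its normalised counts were 94.6, 100.6 and 84.7 in WT and 119.3, 149.8 and 131.5 in KO, a modest rise without overlap (log2 fold change 0.52 ± 0.17, edgeR adjusted p = 0.025). The rise kept its direction but lost the call in 5 of 6 fits that left out a library, all but the one without KO replicate 1 (adjusted p of 0.052 to 0.118 in those 5). Under LPS it had 55.3, 60.7 and 95.7 counts in WTL and 143, 112.3 and 134.5 in KOL (0.87 ± 0.19, edgeR adjusted p = 0.0016). The LPS effects were -0.39 (interval -0.79 to 0.02) in WT and -0.04 (interval -0.40 to 0.33) in KO cells. The first of these passed the threshold without WT replicate 3 (-0.53, edgeR adjusted p = 0.047) and without WTL replicate 3 (-0.68, edgeR adjusted p = 0.0041).

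Chst15 rose with both CTCF depletion and LPS. The counts were 70.7, 67.1 and 64 in WT, 118.7, 144.1 and 153.1 in WTL, 172.3, 140.2 and 164.9 in KO, and 320.4, 296 and 257.3 in KOL. WT libraries were the lowest and KOL libraries the highest, with WTL and KO overlapping between them. The log2 fold changes were 1.24 ± 0.13 between KO and WT and 1.06 ± 0.12 between KOL and WTL (edgeR adjusted p = 3.2e-06 and 6.4e-06). They were 1.05 ± 0.14 and 0.87 ± 0.12 for LPS in WT and in KO cells (edgeR adjusted p = 1.3e-05 and 1.4e-05). The LPS effects of the genotypes differed by -0.18, with an interval of -0.57 to 0.21, so the LPS effect was not shown to depend on genotype.

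Chst1, the keratan sulfate sulfotransferase and the closest relative of Chst3 in protein sequence, rose with LPS in WT cells and fell with LPS in KO cells. The normalised counts were 29.4, 28.5 and 27.7 in WT and 120, 98.6 and 80.8 in WTL (log2 fold change 1.79 ± 0.17, edgeR adjusted p = 4.8e-07). In KO they were 222.5, 189.1 and 184.3, a mean 6.97 times that of WT (2.80 ± 0.16, edgeR adjusted p = 4.3e-09), and in KOL 94.6, 97.1 and 85.4 (-1.11 ± 0.14 against KO, edgeR adjusted p = 7.1e-06). The groups compared in these contrasts did not overlap. The LPS effects had opposite signs in the genotypes and differed by -2.90 ± 0.22 (interaction, edgeR adjusted p = 1.9e-06). After LPS the genotypes overlapped, and KOL differed from WTL by -0.10 with an interval of -0.42 to 0.22 (edgeR adjusted p = 0.61). Chst1 and Chst3 thus shared a high level in KO and a lower one in KOL, but Chst1 rose with LPS in WT cells, where the interval for Chst3 included 0.

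**Figure D2:**
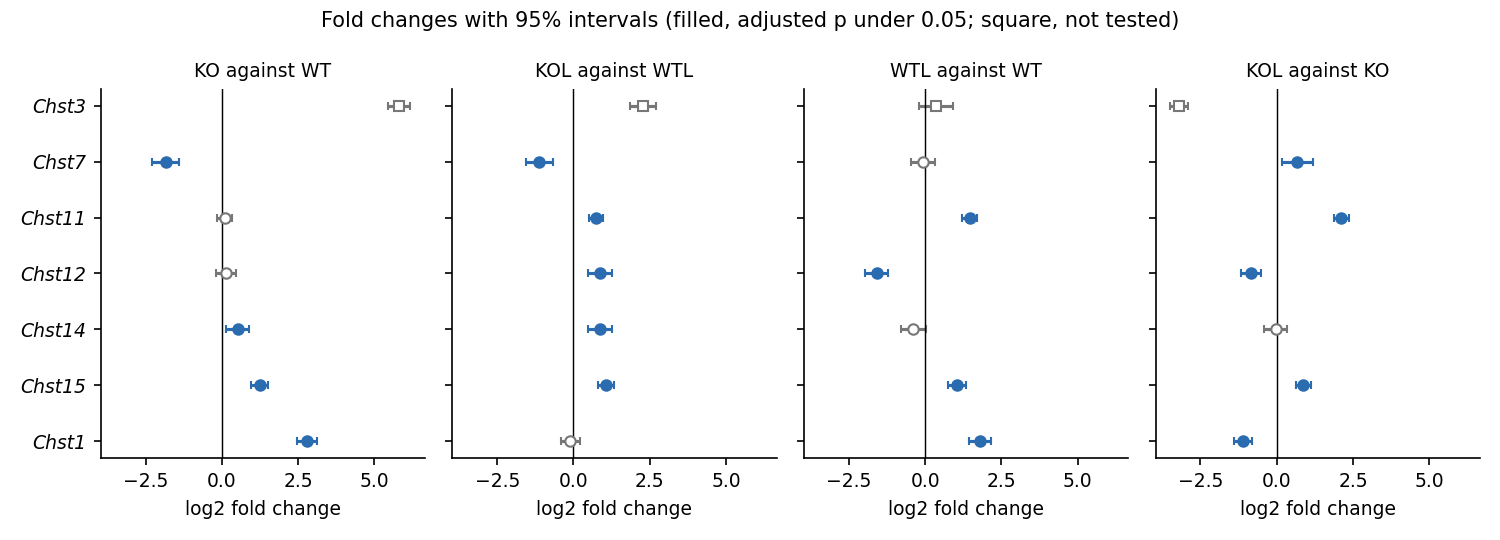
Log2 fold changes of 7 members with 95% intervals in the 4 comparisons. Filled circles passed an adjusted p of 0.05, open circles did not, and squares mark Chst3, which was not tested. In KO against WT Chst7 lies at -1.85 and Chst1 at 2.80, and in the LPS comparisons Chst11 and Chst12 lie on opposite sides of 0 in both genotypes.

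By comparison, among the 6 tested members Chst1, Chst14 and Chst15 were higher and Chst7 was lower in KO than in WT, where 22.2% of the 14008 genes tested were called higher and 22.4% lower. Since the family was picked on that contrast, nothing is read from the share of its members. In KOL against WTL, Chst11, Chst12, Chst14 and Chst15 were higher and Chst7 lower, 5 of 6 called where 21.4% of all genes were called higher and 23.3% lower. With LPS in WT cells, Chst1, Chst11 and Chst15 rose and Chst12 fell, 4 of 6 called where 30.0% of all genes rose and 30.2% fell. With LPS in KO cells, Chst7, Chst11 and Chst15 rose and Chst1 and Chst12 fell, 5 of 6 called where 33.6% of all genes rose and 33.9% fell, and the family was picked on this contrast too. An LPS response that differed between genotypes was called for Chst1, Chst11 and Chst12, 3 of 6, where 17.4% of all genes were called. These counts describe the members and support nothing further. The median log2 fold change of the 6 was 0.32, 0.81, 0.50 and 0.32 in KO against WT, KOL against WTL, WTL against WT and KOL against KO, against -0.01, -0.03, -0.02 and -0.02 over all genes tested.

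In TPM, which allows levels of different genes to be compared, the order of the members changed from group to group. The TPM values of different groups are not read as changes, since after LPS TPM moved the median of all genes by -0.42 (log2(TPM + 1), WTL against WT) relative to the normalised counts. The mean length assigned to Chst12, which enters its TPM, ran from 1803 to 2331 bases between libraries. In WT it ran Chst12 (13.5 ± 0.61, SD, n = 3), Chst11 (6.63 ± 0.10), Chst14 (4.82 ± 0.43), Chst7 (3.44 ± 0.40), Chst15 (1.47 ± 0.15), Chst1 (1.11 ± 0.055) and Chst3 (0.447 ± 0.049), with no overlap between neighbours. In WTL Chst11 led at 12.7 ± 1.1, and Chst12, Chst1, Chst14, Chst7 and Chst15 followed between 2.28 and 2.98, each overlapping its neighbour. In KO Chst3 led at 23.2 ± 0.64, ahead of Chst12 at 15.0 ± 1.4, while Chst1, Chst11 and Chst14 overlapped between 6.43 and 7.25. In KOL Chst11 led again at 20.9 ± 4.0, and Chst3, at 1.85 ± 0.38, overlapped with Chst1 at 2.46 ± 0.20 and lay above Chst7. Of the summed TPM of the 9 members, Chst3 held 1.42% ± 0.18 in WT, 1.47% ± 0.42 in WTL and 37.1% ± 1.6 in KO, and at least 4.06% in each KOL library.

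The 6-O transcripts, Chst3 plus Chst7, can be set beside the 4-O transcripts, Chst11, Chst12 and Chst14, in the same unit. The 6-O share of both was 13.5% ± 1.7 in WT, 12.8% ± 0.95 in WTL, 46.4% ± 2.9 in KO and 8.58% ± 0.72 in KOL (SD, n = 3). The KO libraries, at 43.1% to 48.2%, stood apart from all others, and the KOL libraries, at 8.04% to 9.39%, lay below every WT and WTL library. Chst15, which adds a 6-O-sulfate to a residue already sulfated at carbon 4, enters neither sum. It was 4.49 ± 0.64 TPM in KOL and 1.47 ± 0.15 in WT, against 2.88 ± 0.24 and 3.89 ± 0.40 for Chst3 plus Chst7. The low place of the KOL share thus depends on leaving Chst15 out. The shares in KO and KOL rest largely on Chst3, which held 57.0% to 72.2% of the 6-O TPM in KOL, and are descriptions. The transcript share says nothing of the enzyme activity or of the sulfation of the chains, which were not measured here.

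**Figure D3:**
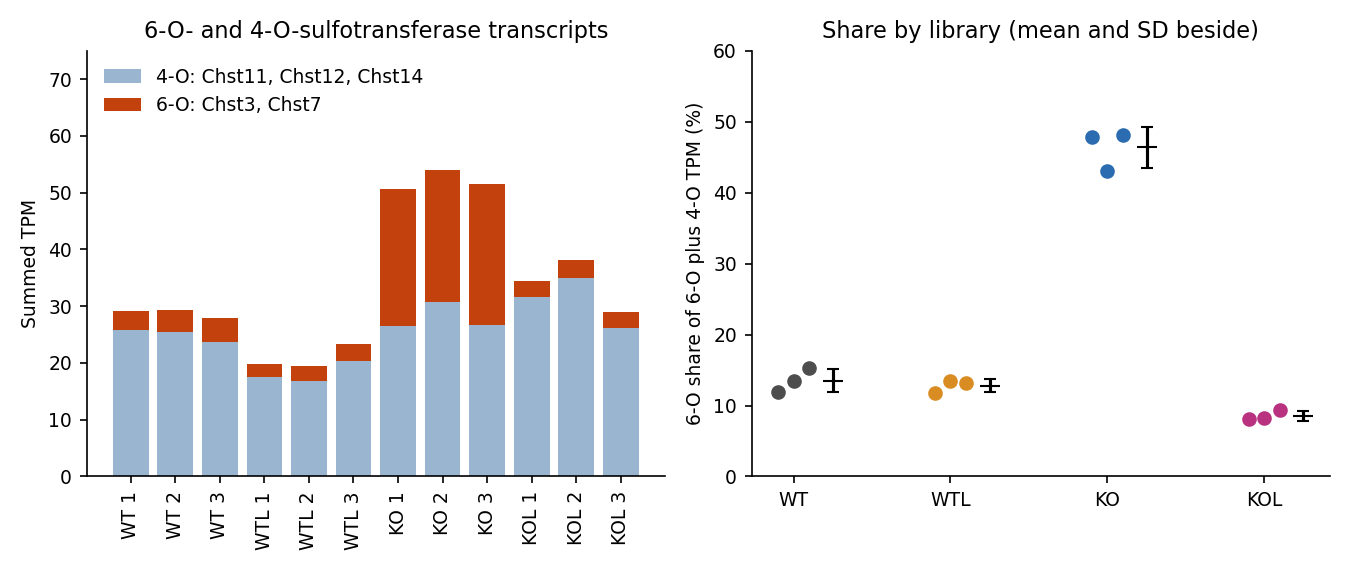
Left, summed TPM of the 4-O transcripts (Chst11, Chst12, Chst14) and the 6-O transcripts (Chst3, Chst7) in each library, and right, the 6-O share of both in percent, with points for libraries and the group mean with SD beside them. The heights of the bars on the left are unscaled TPM and do not show changes with LPS. The share is 43.1% to 48.2% in KO and at most 15.2% in the other libraries, and Chst15 enters neither sum.

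Genes whose pattern over the 12 libraries was most like that of Chst3 were ranked by Pearson's r of log2 normalised counts among 9337 tested genes with a mean of at least 100 counts. The 5 nearest were Mcf2l (0.986), Atp10d (0.984), Stum (0.977), Chn2 (0.976) and Ifi30 (0.976). Mcf2l went from 363.2 in WT to 1444 in KO and 622.5 in KOL. Stum went from 72.9 to 719.3 and 166.5, and Chn2, a Rac GTPase-activating protein, from 133.8 to 810.7 and 292.6. Ifi30, a lysosomal thiol reductase of antigen processing, went from 6485 to 10590 and 7687. All 5 were lower in WTL than in KO, which follows from their ranking by likeness to Chst3 in these libraries. None of them is on the chromosome of Chst3, and the libraries of one group share their treatment, so that r is a description of 4 group levels more than of 12 separate points.

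The genes around Chst3 were examined because CTCF depletion can alter expression over neighbouring genes. Within 500 kb of the Chst3 start, 15 other genes start, and 8 of them were tested. In KO against WT 6 of the 8 rose, and none was called lower, where 22.2% of all genes tested rose and 22.4% fell. Spock2, which encodes the proteoglycan testican-2 and starts 113 kb away in the direction of Chst3 transcription, had normalised counts of 0, 0.839 and 1.73 in WT and 32.3, 22.1 and 23.2 in KO. Spock2 passed the filter on low counts only through its KO and KOL libraries. Its rise in KO, counted among the 6, is therefore a description without a test. Spock2 was at 0 in all WTL libraries and at 37.6, 51.5 and 40.6 in KOL, at least 10.7-fold higher when set against a floor of 3 counts per library. Unlike the level of Chst3, that of Spock2 was higher in KOL than in KO (log2 fold change 0.73 ± 0.28, edgeR adjusted p = 0.035).

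In KO against WT the other tested neighbours differed by at most 0.68 on the log2 scale. Psap, the precursor of the saposins that aid lysosomal sphingolipid breakdown, starts 58.4 kb on the other side and had a mean of 105400 in WT and 168900 in KO (0.68 ± 0.07, edgeR adjusted p = 2.0e-06). Vsir, which encodes the immune checkpoint protein VISTA, went from 1759 ± 77.4 in WT to 2183 ± 34.5 in KO (SD, n = 3) and fell to 383.7 ± 39.2 in KOL (-2.51 ± 0.08 against KO, edgeR adjusted p = 3.3e-12). It fell with LPS in WT cells too, to 396 ± 18.6 (-2.15 ± 0.08, edgeR adjusted p = 1.9e-11). Anapc16, Dnajb12 and Cdh23 rose by 0.50, 0.26 and 0.65 on the log2 scale in KO, and Ascc1 and Ddit4 did not pass the threshold. In KOL against KO, 1 of the 8 rose and 5 fell, where 33.6% of all genes rose and 33.9% fell.

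**Figure D4:**
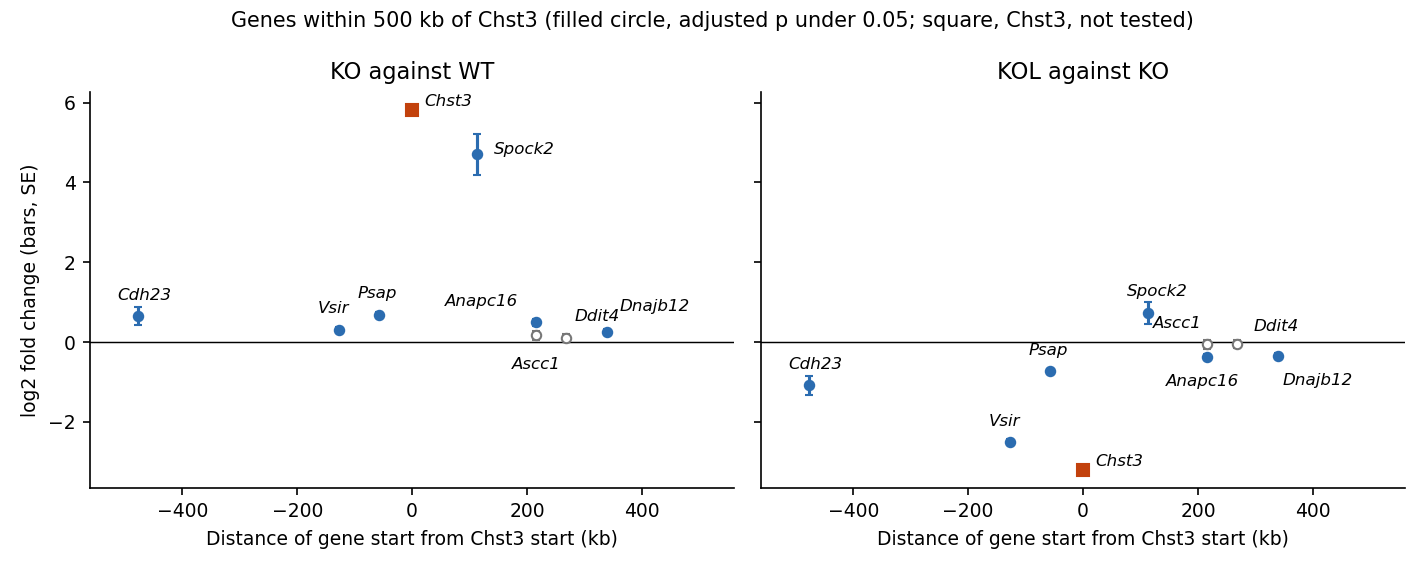
Log2 fold changes (bars, SE) of the 8 tested genes that start within 500 kb of Chst3, against the distance of their start from the Chst3 start in kb, where positive values lie in the direction of Chst3 transcription, with KO against WT on the left and KOL against KO on the right. Filled circles passed an adjusted p of 0.05. Spock2 and Chst3 (square, not tested) are both high in KO against WT, and in KOL against KO Chst3 lies at -3.20 and Spock2 at 0.73. The Spock2 fold in the left panel rests on WT libraries with at most 1.73 normalised counts. Spock2 passed the filter only through its KO and KOL libraries, so its filled circle in the left panel is a description.

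Around the other members the counts differed from gene to gene. In KO against WT the tested genes within 500 kb of Chst1 numbered 5, with none called higher and 1 lower, those of Chst7 numbered 3, with 2 higher and none lower, those of Chst10 numbered 6, with 2 higher and 1 lower, those of Chst11 numbered 9, with 3 higher and 1 lower, those of Chst12 numbered 13, with 4 higher and 2 lower, and those of Chst15 numbered 3, with none higher and 2 lower. For Chst14 they numbered 24, with 6 higher and 5 lower, and for Chst2 they numbered 2, with neither called. Of all genes tested, 22.2% were called higher and 22.4% lower in that comparison. Of the 13 neighbours of Chst12, 1 rose and 8 fell in WTL against WT, where 30.0% of all genes rose and 30.2% fell. In KOL against KO none rose and 7 fell, where 33.6% of all genes rose and 33.9% fell. In KOL against WTL 5 were higher and none lower, where 21.4% of all genes were higher and 23.3% lower. These are the counts of 1 window out of 9 and support nothing further.

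Sulfotransferases need sulfate, its activated donor and an acceptor chain, and lists of the genes for these steps are given by counts. Of 10 tested genes of sulfate and PAPS supply, 4 rose and 1 fell in KO against WT. Of all genes tested, 22.2% rose and 22.4% fell in KO against WT, and 30.0% rose and 30.2% fell in WTL against WT. Slc26a6, an anion exchanger that carries sulfate, rose from 235.3 ± 10.6 to 577.2 ± 14.7 normalised counts (SD, n = 3). Papss1, a PAPS synthetase, rose by 0.34 ± 0.07 on the log2 scale (edgeR adjusted p = 0.0014) and Slc26a2, the diastrophic dysplasia sulfate transporter, fell by 0.25 ± 0.10 (edgeR adjusted p = 0.045). With LPS in WT cells 4 rose, among them Slc35b2, the PAPS transporter of the Golgi (0.81 ± 0.14, edgeR adjusted p = 0.00021), and 5 fell, among them Slc26a6, Slc26a2 and Papss1. The median of the list was 0.09 in KO against WT and -0.38 in WTL against WT, against -0.01 and -0.02 over all genes tested.

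Of 16 tested genes of chondroitin and dermatan chain synthesis, 3 rose and 5 fell in KO against WT, and 5 rose and 7 fell with LPS in WT cells. The shares of all genes tested that rose and fell were 22.2% and 22.4% in KO, and 30.0% and 30.2% in WTL. Xylt2, which starts the chain on the core protein, fell from 397.7 ± 21.8 to 225.6 ± 3.3 in KO and rose to 1205 ± 68.8 in WTL. Dse, which makes dermatan from chondroitin by epimerising its uronic acid, rose with LPS from 415.9 ± 23 to 992 ± 80.2 (1.25 ± 0.08, edgeR adjusted p = 1.1e-08). Csgalnact2, which starts the chondroitin repeat, fell with LPS by 0.81 ± 0.10 on the log2 scale. Of 15 tested genes of keratan sulfate, selectin ligand and HNK-1 acceptor synthesis, the substrates of Chst1, Chst2 and Chst10, 4 rose and 5 fell in KO. In WTL 7 rose, including B3gnt2, which extends polylactosamine (348.5 ± 94.6 to 1556 ± 249.5), and 4 fell. B3gnt7, which acts in keratan sulfate extension, fell in both comparisons, from 226.3 ± 10.8 to 76.5 ± 5.4 in KO and to 49.4 ± 8.9 in WTL.

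Heparan sulfate and other Golgi sulfotransferases, the nearest enzymes in function outside the family, included 11 tested genes, of which 5 rose and none was called lower in KO against WT. Of all genes tested, 22.2% rose and 22.4% fell in that comparison. Ndst1, the N-deacetylase and N-sulfotransferase that begins heparan sulfate modification, went from 462.8 ± 44.4 in WT to 3584 ± 81.3 in KO (2.95 ± 0.10, edgeR adjusted p = 2.5e-11). It fell to 929.5 ± 91.5 in KOL (-1.95 ± 0.09 against KO, edgeR adjusted p = 2.5e-10) and to 212.2 ± 21.7 in WTL. Ndst1 and Chst3 were thus both highest in KO and lower in KOL, although Ndst1 fell with LPS in WT cells as well (-1.13 ± 0.10, edgeR adjusted p = 3.6e-07). Tpst1, a protein tyrosine sulfotransferase, rose with CTCF depletion (0.75 ± 0.08, edgeR adjusted p = 3.0e-06) and with LPS in WT cells (1.80 ± 0.08, edgeR adjusted p = 9.0e-11).

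Lysosomal and extracellular enzymes that break down or desulfate sulfated chains were called mostly in one direction in each of the 4 comparisons. Of 20 tested genes, 15 rose and 2 fell in KO against WT, with a median of 0.43 against -0.01 over all genes, and 1 rose and 11 fell with LPS in WT cells, with a median of -0.35 against -0.02. In KOL against WTL 12 rose and 1 fell, and in KOL against KO 2 rose and 12 fell. The shares of all genes tested were 21.4% and 23.3% in KOL against WTL, and 33.6% and 33.9% in KOL against KO. Over all genes tested, 22.2% rose and 22.4% fell in KO against WT, and 30.0% rose and 30.2% fell in WTL against WT. Sulf2, an extracellular heparan sulfate 6-O-endosulfatase, rose from 1860 ± 175.9 to 4094 ± 127.9 in KO, and Hpse, the heparanase, rose from 488.7 ± 30.3 to 954 ± 20.6. Galns, the lysosomal 6-sulfatase that acts on chondroitin 6-sulfate and keratan sulfate, fell from 307.2 ± 17 to 173.4 ± 19.9 in KO (-0.82 ± 0.13, edgeR adjusted p = 0.00012). It was as low in KOL, at 172.2 ± 19.5 against 279.8 ± 50.7 in WTL (-0.71 ± 0.13, edgeR adjusted p = 0.00067). Of 17 tested proteoglycan core proteins, the carriers of the chains, 5 rose and 5 fell in KO, and 11 rose and 3 fell with LPS in WT cells. Sdc4 (syndecan-4) went from 855.2 ± 50.8 in WT to 7860 ± 614.2 in WTL, Agrn (agrin) from 379 ± 19.6 to 2696 ± 114.1, and Vcan, the chondroitin sulfate proteoglycan versican, from 993.8 ± 49.5 to 4686 ± 1674. Sdc4 fell in KO to 362.4 ± 27.4, and Sdc3, another syndecan, rose from 3323 ± 154.1 to 6063 ± 144.5.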

How the data were processed

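Libraries were aligned by the authors with STAR and quantified with RSEM on mm10 with a GENCODE annotation. The submitters' processing notes name STAR 2.5.1 and the study's reporting summary a different version. The tables deposited by the authors gave, per gene and library, the expected count from RSEM, the TPM computed from it and the mean transcript length. Of 55335 gene identifiers, 54587 matched GENCODE M21 with version, which supplied positions and coding sequences. The labels name ribosomal RNA depletion and the methods poly(A) selection, and the strand setting of the counting is not given in the sources used here. Genes overlapping the members had at most 9 counts per library.

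The members and gene lists were chosen with earlier results of these data known. Expected counts, of which 8.00% to 9.12% of genes per library were not whole, were rounded and tested with edgeR 4.0.16 (R 4.3.3; TMM, filterByExpr, quasi-likelihood test) in 1 fit of all 12 libraries with 4 groups, Benjamini-Hochberg adjusted over 14008 genes, with an adjusted p under 0.05 called. Mean ± value is the SE for log2 fold changes and the SD over 3 libraries for levels. Nothing in the labels says that replicates came from separate animals, so p-values measure the spread between these samples. Library totals limit precision through counting error, and at 12769773 to 16586334 expected counts a gene at 0 may hold up to 3 counts.

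Named genes were all 9 members, the 5 other Chst genes by counts, Ctcf, from each list at most 3 called higher and 3 called lower with a mean of at least 100 normalised counts, the 5 genes most like Chst3, and genes starting within 500 kb of Chst3. Of the 5 other Chst genes, Chst13 was also tested in the comparisons without KO. Marker genes were named to describe the cells. Alternatives were DESeq2 1.42.0, its size factors in edgeR, other count filters, the 6 compared libraries alone, the replicate number as a block, the study's fold cutoffs, leaving out each library, and limma 3.58.1 on log2(TPM + 1) or log2(TPM + 0.1). The fits were tested on simulated counts first.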

Additional observations from a re-analysis of the deposited data

Results flagged for a closer look

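For 3 members the response to LPS differed between the genotypes by the interaction term of the edgeR fit. For Chst1 the log2 LPS response in KO minus that in WT was -2.90, with opposite signs in the genotypes. For Chst11 it was 0.66, with a rise in both. For Chst12 it was 0.75, with a fall in both that was smaller in CTCF-deficient cells, and this call was lost in most fits that left out a library. The reasons were not tested.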

How the results depend on the processing

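Over the alternatives, the numbers of members called, of 6 tested, stayed within 1.5 times those reported, except that 2 rather than 5 were called in KOL against KO under the fold cutoffs of the study, by construction of a 2-fold limit. Leaving out each library gave 3 to 4 calls in KO against WT, 5 in every case in KOL against WTL, 4 to 5 in WTL against WT, 4 to 5 in KOL against KO and 2 to 3 for the interaction. Signs turned for small differences: for Chst1 in KOL against WTL without WTL replicate 1 (0.0423, range on leaving out each library -0.236 to 0.0423), Chst7 in WTL against WT without WTL replicate 1 (0.0507, range -0.239 to 0.0507), Chst14 in KOL against KO without KO replicate 2 (0.0505) or KOL replicate 2 (0.0553, range -0.115 to 0.0553), and the Chst15 interaction on scaled TPM (0.0142). They also turned for Chst11 in KO against WT on log2(TPM + 1) and log2(TPM + 0.1) (-0.0102 and -0.0116) and for Chst3 in WTL against WT on the same scales (-0.0655 and -0.205). Unscaled TPM moved the median of all genes by -0.42 and -0.50 in WTL against WT and by -0.36 and -0.43 in KOL against KO (pseudocounts 1 and 0.1). A TPM fit scaled to a common median, added after seeing the data, moved it by 0.05 at most. On unscaled TPM Chst7 and Chst14 passed as lower in WTL than in WT (adjusted p of 0.0045 and 0.0017 with a pseudocount of 1, from limma), and the rise of Chst7 in KOL against KO did not pass (adjusted p of 0.40). With the same pseudocount Chst14 passed as lower in KOL than in KO (0.038) and the Chst7 interaction passed (0.047). The Chst14 rise in KO against WT (0.112 and 0.157) and the Chst12 interaction (0.215 and 0.239) did not pass with either pseudocount.

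With the replicate number as a block, 4, 5, 4, 5 and 2 members were called in the same order of comparisons, and the Chst12 interaction was lost (adjusted p = 0.072, edgeR). Correlations of same-numbered libraries ran from -0.25 to 0.10, and whether these libraries shared a culture or an animal was not tested. The block changed no other call of a member. For Chst2 and Chst10, with at most 4 and 7 counts, the depth allowed no comparison.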
